A study of Homo sapiens with 4 samples.

Results

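The genes described here are the readers and erasers of N6-methyladenosine (m6A): the YTH domain readers YTHDF1, YTHDF2, YTHDF3, YTHDC1 and YTHDC2, the insulin-like growth factor 2 mRNA-binding proteins IGF2BP1, IGF2BP2 and IGF2BP3, and the demethylases FTO and ALKBH5. They were listed by gene symbol, with earlier results of these data known, and all 10 were found, with 1 row each, among 20323 gene rows. Poly(A) RNA was sequenced from HCT8, a human colorectal cancer line made resistant to 5-fluorouracil. A METTL14 overexpression plasmid had been transfected before 2 of the libraries and a negative control plasmid before the other 2. All 4 libraries came from cells that also received cycloheximide, an inhibitor of translation elongation, at 100 ug/mL, so every level below is one measured under that drug. The series states that the experiment was carried out independently for each replicate. The comparison addresses how transcripts that decode or remove m6A stand when METTL14, a subunit of the enzyme complex that writes the mark, is raised.

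m6A is placed on mRNA by the METTL3-METTL14 complex, chiefly near stop codons and in long exons. Proteins with a YTH domain bind the methylated base in an aromatic pocket. In the cytoplasm this affects decay and translation, and in the nucleus it affects splicing and export. IGF2BP proteins bind many of the same transcripts through KH domains and are known for stabilising them. FTO and ALKBH5 belong to the AlkB family of iron- and 2-oxoglutarate-dependent dioxygenases and remove the methyl group.

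METTL14 had 7593 and 8516 counts with its plasmid, against 472 and 598 counts with the control plasmid, so the libraries match their labels. Library totals lay between 19206663 and 20161078 counts. The METTL14 libraries differed from each other less than the controls did (chi-square per degree of freedom 3.29 against 28.77). Mitochondrially encoded transcripts took 9.85 and 10.25% of counts with METTL14 and 5.99 and 6.26% in control. All 16 genes of an S phase list were lower with METTL14 (such as CDC6, log2 fold change -2.09, SE 0.106), where 28.1% of all tested genes were lower. That list was chosen with earlier results of these data known. The summed level of the 16 in CPM (the usual depth-scaled count, with TMM) was 959.2 to 1010 CPM with METTL14 and 3580 to 4803 CPM in control. In bulk RNA, fewer cells in S phase and less of these RNAs per cell cannot be told apart. The part of these differences in the results below was not tested. Of 12 colorectal epithelial markers, 11 reached 1 CPM with METTL14 and 10 in control. CEACAM5 was absent or nearly so, with 1 and 2 counts with METTL14 and 0 and 0 in control. Markers of other cells were few at 1 CPM: 3 of 9 fibroblast markers with METTL14 and 4 in control, 3 and 2 of 9 leukocyte markers, 1 and 0 of 5 endothelial markers, and none of 5 erythroid markers in either group. The leukocyte markers summed to 70.15 to 70.54 CPM with METTL14 and 19.61 to 20.55 CPM in control, most of it CD68, while PTPRC, which defines leukocytes, had at most 1 count in a library.

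Of the 9 readers and erasers with enough reads to be tested, 4 were higher with METTL14 (FTO, IGF2BP2, YTHDF1 and ALKBH5), 1 was lower (YTHDC1) and 4 did not pass (quasi-likelihood test of edgeR, p below 0.05 after Benjamini-Hochberg adjustment over 12700 genes). Across all genes tested 55.1% were called, 27.0% as higher and 28.1% as lower, so a share of 5 in 9 lies near the background. The changes were modest, and the largest was 1.67-fold. The median log2 fold change of the 9 was -0.16 and their mean 0.04, beside a median of -0.01 over all genes tested. For 8 of the 9 every METTL14 library lay on one side of every control, as did 79.8% of all tested genes. With 2 libraries a group, an exact permutation test of a single value cannot go below p = 0.333, so each adjusted p rests on the spread that edgeR shares over genes.

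**Figure D1:**
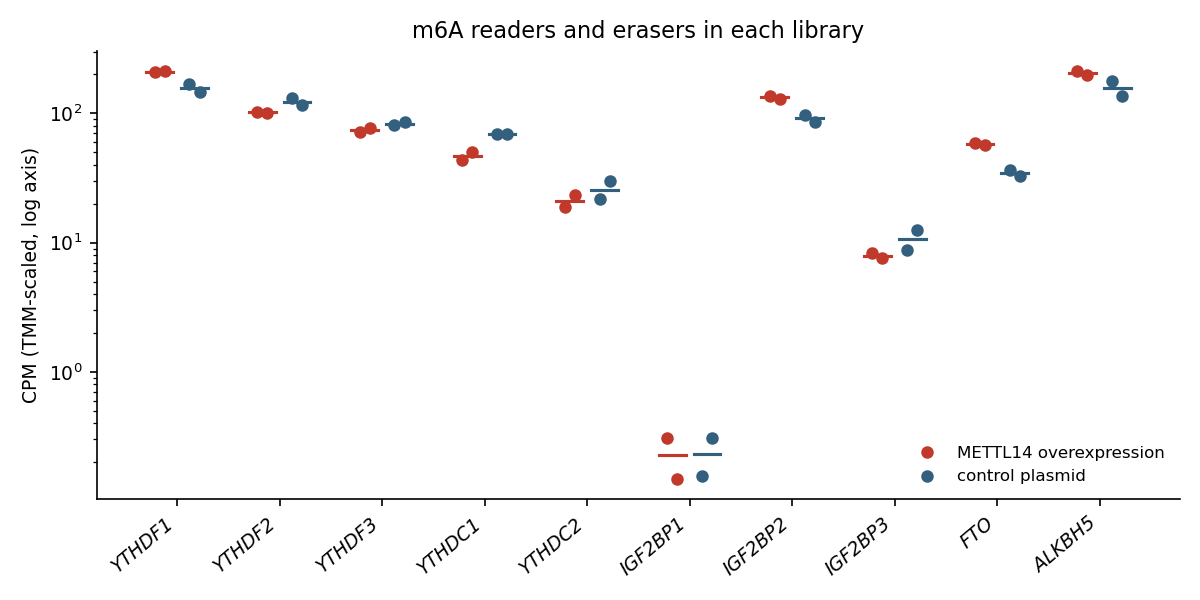
Level of each of the 10 genes in TMM-scaled CPM (log axis), with 1 point per library and a line at the group mean, METTL14 overexpression in red and control plasmid in blue. FTO (59.19 and 56.62 against 36.52 and 33 CPM) and YTHDC1 (43.46 and 49.90 against 69.65 and 69.18 CPM) show the clearest gaps, in opposite directions, and IGF2BP1 lies near 0.2 CPM in both groups.

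**Figure D2:**
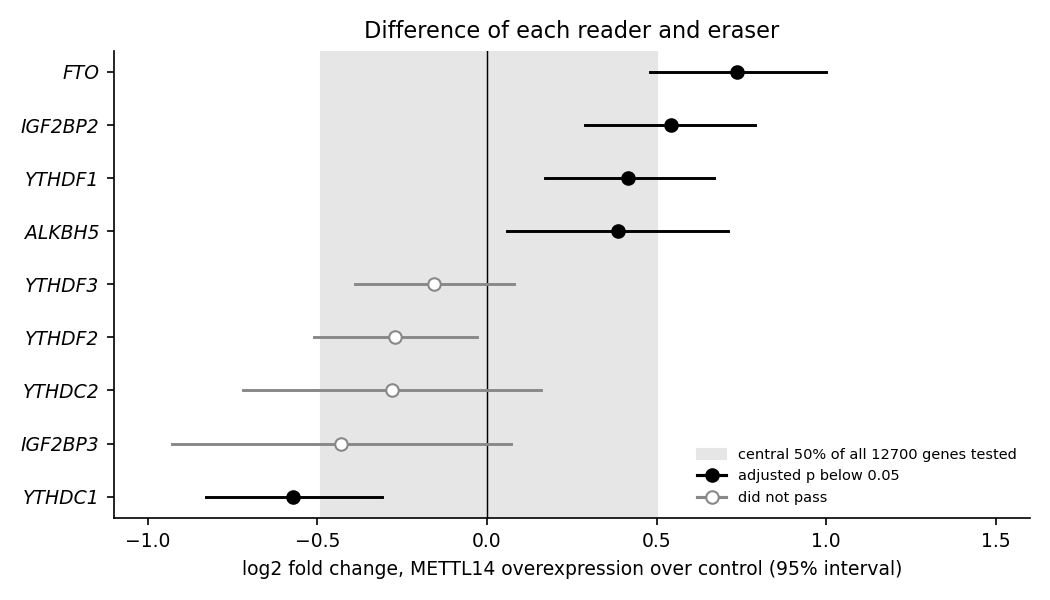
Log2 fold change of METTL14 overexpression over control for the 9 genes tested, with 95% intervals from the edgeR fit; filled points passed an adjusted p of 0.05 and open points did not. The band spans the central 50% of all 12700 genes tested, from -0.49 to 0.50; FTO, IGF2BP2 and YTHDC1 have point estimates outside it.

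The YTHDF readers are cytoplasmic paralogs. YTHDF1 (ENSG00000149658, GRCh38 chromosome 20, 63195429 to 63216234, minus strand), best known for promoting translation of methylated mRNA, had 207.3 and 211.4 CPM with METTL14, against 167.7 and 146.0 CPM in control. Both METTL14 libraries were above both controls. YTHDF1 rose 1.33-fold (log2 fold change 0.42, SE 0.106, edgeR adjusted p = 0.0131). YTHDF2 (ENSG00000198492, chromosome 1, 28736621 to 28769775, plus strand), the reader that brings deadenylases to methylated mRNA, had 102.3 and 101.5 CPM with METTL14 and 130.6 and 115.3 CPM in control. Its METTL14 libraries lay below both controls, but the difference did not pass after adjustment (log2 fold change -0.27, 95% interval -0.51 to -0.03, edgeR adjusted p = 0.0593). With replicate number as a block YTHDF2 passed (edgeR adjusted p = 0.0368). Its log2 fold change was -0.18 without control replicate 1 and -0.36 without control replicate 2. Each of those fits leaves a lone control, so the spread comes from the METTL14 libraries, which differed less. YTHDF3 (ENSG00000185728, chromosome 8, 63168553 to 63212786, plus strand), which is thought to act with both paralogs, had 71.67 and 77.66 CPM with METTL14 and 81.04 and 85.24 CPM in control. These groups lay close together without overlapping, and YTHDF3 did not pass (-0.16, interval -0.39 to 0.08, edgeR adjusted p = 0.222). Without control replicate 1, again with a lone control, its log2 fold change was -0.19.

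Within the YTHDF family the makeup differed. Per transcript length, YTHDF1 supplied 49.1 and 48.7% of the summed YTHDF level with METTL14, against 39.2 and 37.0% in control. YTHDF2 supplied 27.3 and 26.4% with METTL14, against 34.4 and 33.0% in control. The family's sum was 297.3 and 305.0 TPM (the length-scaled share of all transcripts) with METTL14 and 273.3 and 263.0 TPM in control. TPM here and below carries no TMM scaling, so differences between the groups in TPM need not match those in CPM. The ratio of YTHDF1 to YTHDF2 counts, which does not depend on library scaling, had log2 values of 1.02 and 1.06 with METTL14 and 0.36 and 0.34 in control. The ratio was 1.61-fold higher with METTL14, with the replicates of each group close together (exact two-sided permutation p = 0.333, the smallest this design allows). The ratio of YTHDF2 to YTHDF3 overlapped between the groups (0.51 and 0.39 against 0.69 and 0.44). In all, 6 such paralog ratios were computed. With the union of annotated exons as the length, YTHDF1 supplied 62.2 and 62.2% with METTL14, against 51.9 and 50.3% in control. The rise of YTHDF1 lost its call without METTL14 replicate 1 (0.43, adjusted p = 0.118) or replicate 2 (0.40, adjusted p = 0.148), fits with a lone METTL14 library and nearly the same fold change, and after a trend over transcript length and GC was taken out (0.26, adjusted p = 0.071).

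**Figure D3:**
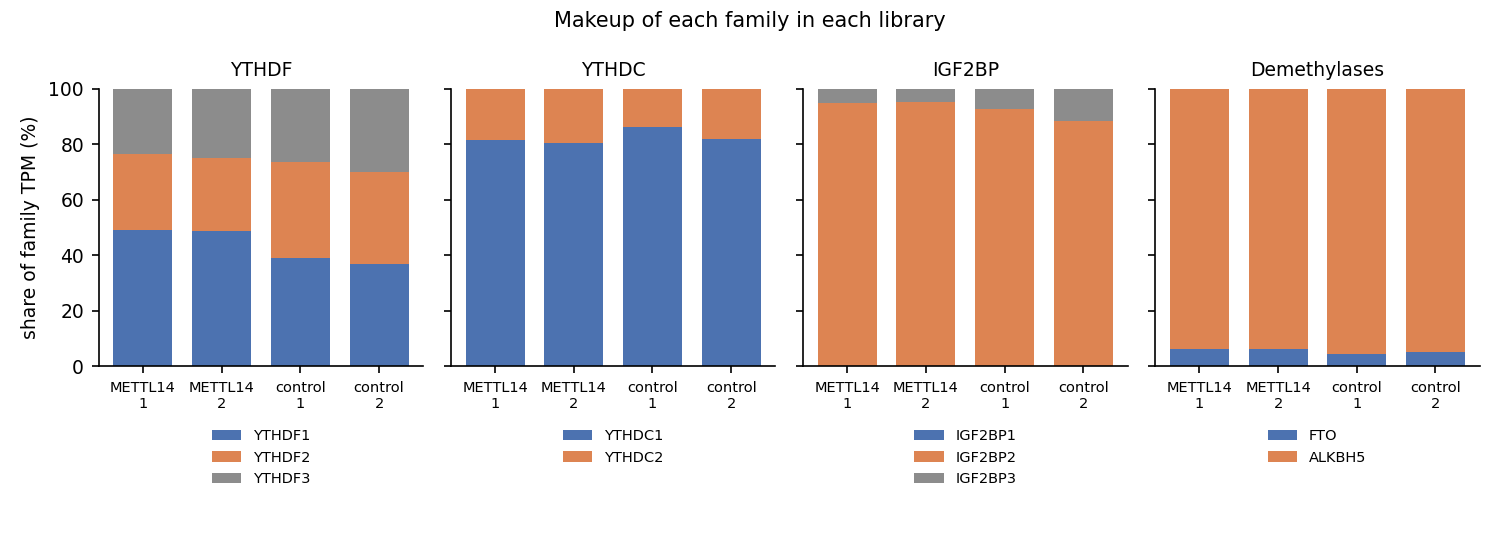
Stacked bars of the share (%) of each family's length-scaled level (TPM) in each library, METTL14 overexpression replicates left of control replicates. YTHDF1 takes 49.1 and 48.7% of the YTHDF level with METTL14 and 39.2 and 37.0% in control, while IGF2BP2 takes at least 88.5% of the IGF2BP level and ALKBH5 at least 93.8% of the demethylase level in every library.

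The YTHDC proteins are unlike each other outside the YTH domain. YTHDC1 (ENSG00000083896, chromosome 4, 68310387 to 68350089, minus strand) is the nuclear reader, tied to splicing and export, and it was the one member that fell. It had 43.46 and 49.90 CPM with METTL14, against 69.65 and 69.18 CPM in control. The controls nearly coincided and both METTL14 libraries lay well below them. The log2 fold change was -0.57 (SE 0.111, edgeR adjusted p = 0.004), a level 0.673 times that of control. Without METTL14 replicate 1 the call was lost (-0.47, adjusted p = 0.079). YTHDC2 (ENSG00000047188, chromosome 5, 113513683 to 113595285, plus strand), an RNA helicase known from the entry of germ cells into meiosis, had 18.91 and 23.37 CPM with METTL14 and 21.59 and 29.77 CPM in control. The groups overlapped, and the difference did not pass (-0.28, interval -0.72 to 0.16, edgeR adjusted p = 0.236). With a lone control, the log2 fold change was -0.49 without control replicate 1 and -0.03 without control replicate 2.

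YTHDC1 and YTHDC2 each have a full cyclic-AMP response element, TGACGTCA (its own reverse complement), in the promoter window. The windows of YTHDF1, YTHDF2, IGF2BP2, IGF2BP3, FTO and ALKBH5 hold none, and those of YTHDF3 and IGF2BP1 are not used here. The windows run from 250 bases before to 50 after a RefSeq start (build GRCh38.p14), and the element is in 1.85% of 35116 windows. The windows of YTHDC1 and YTHDC2 also share the GC box GGGCGG, which is in 45.0% of windows. They are printed because, of the member windows used here, only they hold TGACGTCA. It is in capitals, 5′ to 3′ on the gene's strand. That of YTHDC1 is chr4:68350041-68350340 (minus strand) and that of YTHDC2 is chr5:113513444-113513743 (plus strand).
YTHDC1: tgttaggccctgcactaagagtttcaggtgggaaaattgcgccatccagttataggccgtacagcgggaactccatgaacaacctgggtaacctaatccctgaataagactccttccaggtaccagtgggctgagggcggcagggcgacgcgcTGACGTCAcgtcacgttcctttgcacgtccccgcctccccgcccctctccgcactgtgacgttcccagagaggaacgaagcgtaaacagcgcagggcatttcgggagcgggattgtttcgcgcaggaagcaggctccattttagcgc
YTHDC2: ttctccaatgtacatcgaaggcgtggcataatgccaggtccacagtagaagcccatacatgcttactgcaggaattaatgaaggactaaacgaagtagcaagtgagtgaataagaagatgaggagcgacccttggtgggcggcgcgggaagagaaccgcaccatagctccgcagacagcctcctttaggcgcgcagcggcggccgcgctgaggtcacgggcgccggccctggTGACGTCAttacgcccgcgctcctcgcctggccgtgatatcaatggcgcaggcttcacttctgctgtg
Of the 382 tested genes with this element in a window, 23.6% were called higher and 31.2% lower with METTL14, and their median log2 fold change was -0.05, beside -0.03 over the 10128 tested genes with a window. A match describes the letters and not binding by a factor. Other motifs searched on both strands of the same windows were the E-box CACGTG (7.26% of all windows), found 1 time for YTHDF1 and 2 times for IGF2BP3, the GC box GGGCGG (45.0%), the CCAAT box (34.6%) and the E2F forms TTTGGCGC (0.652%) and TTTCCCGC (1.63%). Neither E2F form was in a member window.

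The IGF2BP family was represented almost wholly by IGF2BP2 (ENSG00000073792, chromosome 3, 185643739 to 185825056, minus strand), the member of the family that many adult tissues express. IGF2BP2 had 136.8 and 129.0 CPM with METTL14, against 97.22 and 85.50 CPM in control. Both METTL14 libraries were above both controls, and IGF2BP2 rose 1.46-fold (log2 fold change 0.54, SE 0.107, edgeR adjusted p = 0.00439). Without METTL14 replicate 1 the adjusted p was 0.0569 at a log2 fold change of 0.50. IGF2BP3 (ENSG00000136231, chromosome 7, 23310209 to 23470467, minus strand), an oncofetal member, had 8.32 and 7.56 CPM with METTL14 and 8.79 and 12.62 CPM in control. Control replicate 2 stood above the other 3 libraries, and the difference did not pass (-0.43, interval -0.93 to 0.07, edgeR adjusted p = 0.124). With a lone control, the log2 fold change was -0.67 without control replicate 1 and -0.15 without control replicate 2. The counts of IGF2BP3 are less certain, because 17.9% of its annotated exon bases overlap those of MALSU1 on the opposite strand (432 and 477 counts with METTL14, 544 and 589 in control). Whether reads were counted by strand is not known here. IGF2BP1 (ENSG00000159217, chromosome 17, 48997412 to 49055650, plus strand), the other oncofetal member, had 6 and 3 counts with METTL14 and 3 and 6 counts in control. It was too low to test. The ratio of its rates was 1.01 (exact 95% interval 0.355 to 2.87, counting error only), so a difference within that range was not detectable at this depth. Per transcript length, IGF2BP2 made up 94.9 and 95.1% of the family with METTL14 and 92.6 and 88.5% in control.

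FTO and ALKBH5, the demethylases, were both higher with METTL14. FTO (ENSG00000140718, chromosome 16, 53701692 to 54158512, plus strand), which acts on internal m6A and on the methylated adenosine beside the mRNA cap, had 59.19 and 56.62 CPM with METTL14, against 36.52 and 33 CPM in control. The groups were well apart. FTO rose 1.67-fold (log2 fold change 0.74, SE 0.111, edgeR adjusted p = 0.00132), further than 82.8% of tested genes, and it kept its call when any one library was left out. Once length and GC were corrected for, its log2 fold change was 0.47 (adjusted p = 0.0188), inside the range of -0.49 to 0.50 that held the central 50% of genes before that correction. Tested against a change of 1.5-fold it did not pass (glmTreat adjusted p = 0.123). ALKBH5 (ENSG00000091542, chromosome 17, 18183078 to 18209954, plus strand), a nuclear demethylase of m6A, had 212.3 and 198.7 CPM with METTL14 and 178.1 and 136.6 CPM in control. Of the ALKBH5 exon bases, 11.2% overlap AC087164.1, an antisense gene on the opposite strand that has no row among the counts. The controls differed more from each other than the METTL14 libraries did, and ALKBH5 passed narrowly (log2 fold change 0.39, SE 0.139, edgeR adjusted p = 0.0481). Its call was lost without METTL14 replicate 1 (0.34, adjusted p = 0.242), without METTL14 replicate 2 (0.43, adjusted p = 0.117) and once length and GC were corrected for (0.23, adjusted p = 0.18), and the log2 fold change was 0.20 without control replicate 2. Per transcript length the pair summed to 191.1 and 178.8 TPM with METTL14 and 143.2 and 115.4 TPM in control, and FTO supplied 6.12 and 6.24% of that with METTL14 and 4.57 and 5.34% in control. The ratio of FTO to ALKBH5 counts had log2 values of -1.84 and -1.81 with METTL14 and -2.29 and -2.05 in control.

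By RefSeq starts, FTO lies head to head with RPGRIP1L, a gene of the ciliary transition zone, and the pair moved in opposite directions. RPGRIP1L had 3.85 and 3.85 CPM with METTL14, against 11.44 and 13.86 CPM in control (75 and 78 counts against 220 and 270). It fell by 1.71 on the log2 scale (SE 0.191, edgeR adjusted p = 0.000398), while FTO rose by 0.74. The RefSeq starts of the genes are 297 bases apart, and their promoter windows share 204 bases (chr16:53703906-53704109). The GENCODE span of FTO begins further out, at 53701692, past the RefSeq start of RPGRIP1L at 53703859. The annotated exons of FTO and RPGRIP1L share 0 bases. Both windows are printed because the same stretch serves a transcript that rose and one that fell. Capitals mark the element known for binding ZNF143, read on either strand. Each window holds it 2 times, and these are the same sites, within the shared stretch. That of FTO is chr16:53703906-53704205 (plus strand) and that of RPGRIP1L is chr16:53703810-53704109 (minus strand), from RefSeq on GRCh38.p14.
FTO: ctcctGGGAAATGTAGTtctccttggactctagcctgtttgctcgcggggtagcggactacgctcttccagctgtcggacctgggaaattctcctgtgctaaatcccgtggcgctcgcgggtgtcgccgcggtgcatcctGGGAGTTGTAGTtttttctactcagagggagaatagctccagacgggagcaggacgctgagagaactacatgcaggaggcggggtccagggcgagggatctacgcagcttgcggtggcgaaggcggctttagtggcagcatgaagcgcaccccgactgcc
RPGRIP1L: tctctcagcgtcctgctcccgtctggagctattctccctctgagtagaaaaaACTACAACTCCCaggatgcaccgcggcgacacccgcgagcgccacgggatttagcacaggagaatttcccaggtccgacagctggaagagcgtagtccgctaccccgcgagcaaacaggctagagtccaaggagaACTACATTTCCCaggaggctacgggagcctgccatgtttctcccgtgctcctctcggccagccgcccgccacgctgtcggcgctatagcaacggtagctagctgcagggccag
The ZNF143 element is in 1.75% of all 35116 windows. Of the 453 tested genes with it, 22.7% were called higher and 35.8% lower, with a median log2 fold change of -0.14. Among 717 diverging gene pairs with overlapping windows, both genes tested, 71 pairs (9.9%) had both genes called in opposite directions, and the median difference in log2 fold change between partners was 0.63, beside 2.45 for FTO and RPGRIP1L.

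Of the other listed neighbours of FTO, AKTIP (0.19, interval -0.11 to 0.49), IRX3 (0.37, interval -0.02 to 0.76) and IRX5 (-0.12, interval -0.61 to 0.38) had no call, IRX3 and IRX5 being homeobox genes contacted by enhancers in FTO introns, and IRX6 had no count. Some exon bases of AKTIP (11.7%) overlap RBL2 on the opposite strand, a retinoblastoma family gene that is not on the list and is named after its value was seen. RBL2 had 1083 and 1121 counts with METTL14, against 551 and 762 counts in control, and it rose (log2 fold change 0.71, SE 0.155, edgeR adjusted p = 0.00669).

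**Figure D4:**
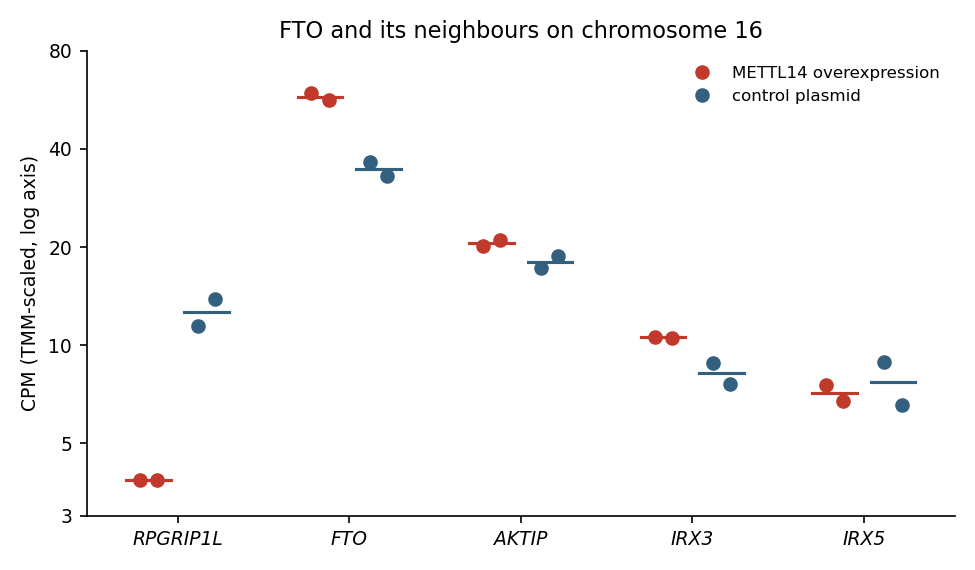
Level in CPM (log axis) of FTO and its tested neighbours, with 1 point per library, a line at the group mean, METTL14 overexpression in red and control plasmid in blue. FTO is higher with METTL14 (59.19 and 56.62 against 36.52 and 33 CPM) and RPGRIP1L is lower (3.85 and 3.85 against 11.44 and 13.86 CPM).

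Ordered by level per transcript length, ALKBH5 (173.6 ± 8.31 TPM with METTL14 and 123.0 ± 19.3 TPM in control, SD, n = 2) and YTHDF1 (147.2 ± 1.89 and 102.2 ± 6.96 TPM) stood first in both groups. With METTL14, IGF2BP2 (83.67 ± 3.54 TPM) came next, overlapping YTHDF2 (80.85 ± 0.536 TPM), and then YTHDF3 (73.13 ± 4.08 TPM) and YTHDC1 (33.4 ± 3.22 TPM). In control, IGF2BP2 (53.28 ± 3.25 TPM) stood below YTHDF2 (90.4 ± 5.24 TPM) and YTHDF3 (75.59 ± 4.95 TPM) and above YTHDC1 (46.08 ± 1.15 TPM). FTO (11.42 ± 0.374 TPM with METTL14 and 6.35 ± 0.266 TPM in control) stood above YTHDC2 with METTL14 and below it in control. In control the libraries of FTO and IGF2BP3 (5.46 ± 1.54 TPM) overlapped. IGF2BP1 was last, at 0.064 ± 0.0318 TPM with METTL14 and 0.0608 ± 0.0298 TPM in control. These levels use the length of the principal annotated transcript, which for FTO is 11766 bases. With the union of all annotated exons the ranks of IGF2BP2 and YTHDF3 in control trade places. On that length YTHDF3 stood at 41.03 TPM with METTL14 and 45.74 TPM in control, against 89.43 and 107.8 TPM for YTHDF2.

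The principal transcripts differ in GGACT, the most common form of the m6A motif on mRNA. FTO holds 5, all in its 3′ untranslated region of 10029 bases, YTHDC1 holds 1 and YTHDF1 holds 1. Per kilobase, ALKBH5 (1.46) and IGF2BP2 (1.36) lie above the median of 0.93 over 19542 coding genes, and FTO (0.42), YTHDF1 (0.30) and YTHDC1 (0.31) lie below it. Members that rose are thus found on both sides of the median. Methylation itself was not measured.

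Of 10 other proteins reported to bind m6A or m6A-dependent structures, all tested, 6 were lower and 1 higher, where 28.1% of all tested genes were lower and 27.0% higher, with a median log2 fold change of -0.48. HNRNPA2B1, a splicing regulator, had 293.3 and 313.5 CPM with METTL14, against 706.5 and 876.0 CPM in control (log2 fold change -1.38, SE 0.127). HNRNPC, whose binding site is exposed by the mark, fell as well (-0.96, SE 0.0974), as did LRPPRC, a regulator of mitochondrial mRNA (-0.78, SE 0.0941). Exon bases of HNRNPA2B1 overlap CBX3 on the opposite strand (4.0%).

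On the writing side, besides METTL14 itself (405.4 ± 21.7 CPM with METTL14 and 27.62 ± 4.34 CPM in control), 4 of the 9 genes of the writer complex and METTL16 were lower, among them ZC3H13 (-1.13, SE 0.124) and METTL3, the catalytic subunit (-0.78, SE 0.111), of whose exon bases 6.6% overlap TOX4 on the opposite strand. Over all tested genes 28.1% were lower and 27.0% higher. The median of these 9 was -0.06. Their mean (0.16) has the opposite sign, but it includes METTL14 itself, the gene carried by the plasmid (3.88). Of 4 other adenosine methyltransferases, PCIF1, which makes the cap-adjacent mark that FTO can remove, was higher (55.33 and 56.12 against 42.03 and 33.92 CPM; 0.55, SE 0.13) and 3 were not called. The PCIF1 call was lost once length and GC were corrected for (adjusted p = 0.0676).

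The other AlkB family genes give the paralogs of the erasers. Of 7 tested, 1 was higher and 2 were lower, no larger a share than the 55.1% called over all genes, and their median log2 fold change was -0.09. ALKBH3, a DNA and RNA repair enzyme, rose (0.46, SE 0.11), and ALKBH8, a tRNA modifier (-0.69, SE 0.201), and ALKBH1 (-0.56, SE 0.167) fell. The ALKBH3 call was lost without either METTL14 library, and those of ALKBH8 and ALKBH1 without METTL14 replicate 1 and after the length and GC correction.

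Of 11 genes of CCR4-NOT, the deadenylase that YTHDF2 recruits, 2 were higher and 3 lower, no larger a share than the 55.1% called over all genes, with CNOT8, a catalytic subunit that overlaps FAXDC2 at 4.1% of its exon bases, at 0.58 (SE 0.12), CNOT9 at -0.69 (SE 0.125) and CNOT10 at -0.73 (SE 0.108). The list's median (0.11) and mean (-0.07) differ in sign. Of 12 genes of the alternative route, in which YTHDF2 acts through RIDA and RNase P/MRP, with UPF1, 9 were lower and none higher, with a median of -0.76. Over all tested genes 28.1% were lower and 27.0% higher. POP1, the largest protein subunit, had 8.07 and 7.66 CPM with METTL14, against 32.67 and 27.61 CPM in control (-1.94, SE 0.149), and POP7 (-1.12, SE 0.112) and POP5 (-1.37, SE 0.148) fell too. Among 7 tested partners of YTHDC1 and YTHDC2, 4 were lower and none higher. The share called either way is near the 55.1% over all genes tested, while 28.1% of all tested genes were lower and 27.0% higher. SRSF3, the splicing factor through which YTHDC1 promotes exon inclusion and export, had 152.7 and 153.4 CPM with METTL14, against 456.2 and 407.3 CPM in control (0.355-fold of control, SE 0.104 on the log2 scale). KHDRBS1 (-0.91, SE 0.113) and SAFB (-0.35, SE 0.101) were also lower, the call of SAFB being lost without either METTL14 library.

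Of 5 tested genes on a list of IGF2BP partners and the let-7 circuit, 4 were lower, where 28.1% of all tested genes were lower. They were SYNCRIP (-1.46, SE 0.0957), MATR3 (-0.94, SE 0.126), HMGA2, an oncofetal let-7 target (-0.81, SE 0.165), and ELAVL1, a stabiliser of AU-rich mRNAs, named after its value was seen (-0.52). PABPC1, the poly(A)-binding protein, was not called (-0.06, edgeR adjusted p = 0.692). HMGA2 lost its call without METTL14 replicate 1 (adjusted p = 0.0695), and MATR3 is split over rows that share exons (-0.75 with the rows summed). LIN28B, which belongs to the same oncofetal programme as IGF2BP1, had no count in any library, which allows up to 0.156 CPM, and LIN28A had at most 1. Of 7 mRNAs known to be bound by IGF2BP proteins, 2 were higher, 2 lower and 3 not called, a called share near the 55.1% over all genes. MYC had 244.7 and 231.6 CPM with METTL14, against 99.51 and 83.45 CPM in control (1.38, SE 0.118). CD44 had 133.3 and 131.1 CPM with METTL14, against 68.72 and 64.56 CPM in control (0.99, SE 0.0968). ACTB had 1402 and 1279 CPM with METTL14, against 4597 and 2816 CPM in control, with controls far apart (-1.47, SE 0.213). Calls, fold changes and SE of all these lists come from the edgeR fit over all genes, except where a left-out library, summed rows or a correction is named.

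**Figure D5:**
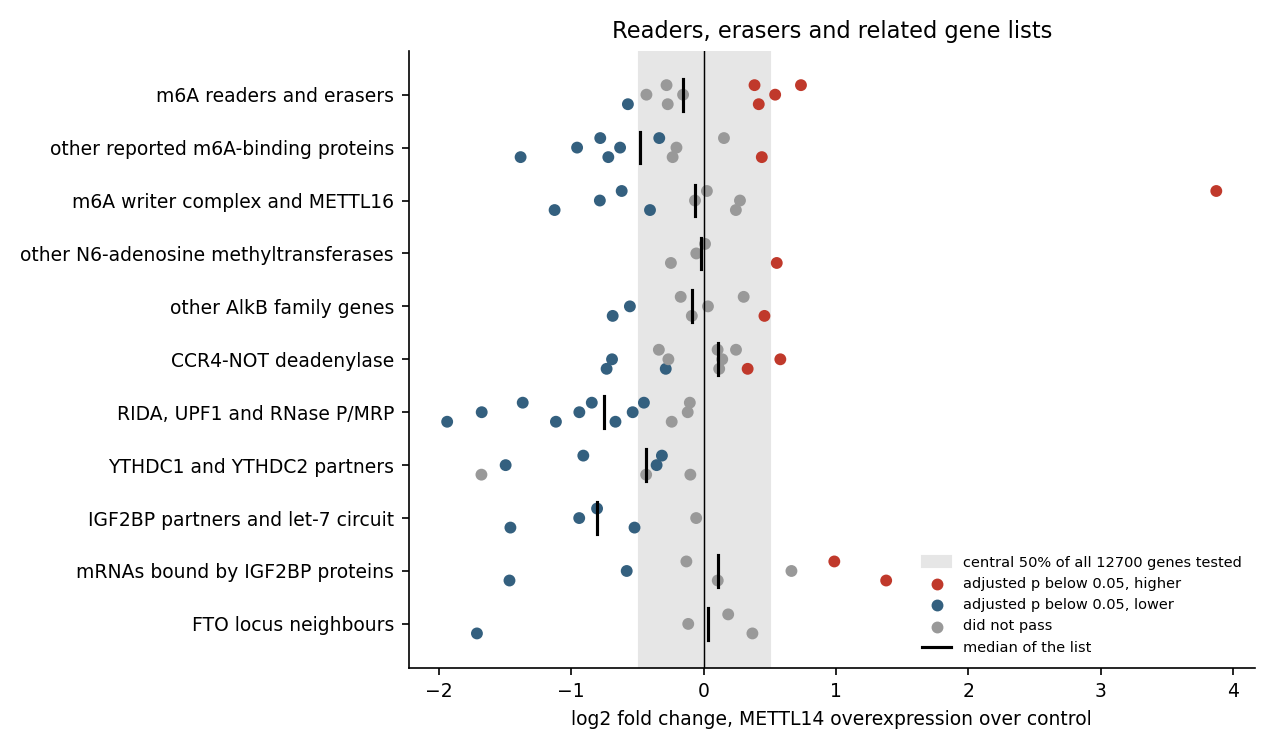
Log2 fold change of METTL14 overexpression over control for each tested gene of the readers and erasers and of 10 related lists, with red for genes called higher, blue for lower, grey for not called, and a line at each list's median. The readers and erasers (median -0.16) sit within a range of -0.57 to 0.74, and the median of the RNase P/MRP list is -0.76.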

How the data were processed

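The authors deposited 1 gene table of raw expected counts for each of the 4 libraries, in which 10.8 to 11.6% of values are not whole. The submitters' processing notes list RSEM, StringTie, HISAT2, Bowtie2 and fastp without versions, and the hg18 build. Of the gene identifiers, 20171 of 20323 are in GENCODE 29 on GRCh38, whose coordinates and lengths are given, so the build behind the counts is unclear. Rows without a symbol (102) took at most 0.037% of counts. The members and gene lists were chosen with earlier results of these data known.

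Counts were rounded and tested by R 4.3.3 and its edgeR 4.0.16, filtered by filterByExpr at a minimum count of 10, with TMM, a robust quasi-likelihood fit and no covariate, over 12700 genes. SE is the size of the log2 fold change over the square root of F, and 95% intervals use the fit's degrees of freedom. TPM values were computed from the deposited counts and the principal GENCODE transcript length, without TMM. The text names all 10 members and up to 3 called genes of smallest p per other list. ELAVL1, PABPC1, RBL2, AKTIP, IRX3, IRX5, IRX6, LIN28A, LIN28B, the markers and gene pairs that overlap are named outside that rule. The procedure was tested on simulated data. Alternatives used DESeq2 1.42.0 and limma 3.58.1, and a loess correction for length and GC over 12653 genes was chosen after seeing the data. Other steps used Python 3.11.15, numpy 2.4.6, pandas 2.3.3, scipy 1.17.1 and matplotlib 3.10.9.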

Additional observations from a re-analysis of the deposited data

How the results depend on the processing

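Of 153 values of the 9 tested readers and erasers under 17 alternatives each, 134 stayed on the same side of the threshold, 13 lost their call, 6 gained one and 0 changed sign. For 29 other listed genes, 473 of 493 values did so, 20 lost a call and 0 changed sign. These 29 were taken as the called genes of smallest p, up to 3 per list, so none could gain a call. Tested against a change of 1.5-fold (edgeR glmTreat), 1416 genes were higher and 1357 lower, and of the members 0 were higher and 0 lower, with 1 (FTO) at an unadjusted p below 0.05, where DESeq2 and limma-voom, which test against no change, called 4 higher and 1 lower. With the trend on length and GC removed, 2 members were higher, and the cause was not tested. Leaving out 1 library at a time gave 2307 to 4452 genes higher and 2307 to 4575 lower, and 1 to 4 members higher and 0 to 5 lower. The fewest came without METTL14 replicate 1, which leaves a lone METTL14 library assumed to vary like the controls. The most lower members came without control replicate 1, which leaves a lone control assumed to vary like the METTL14 libraries. Those differed from each other less than the controls did (chi-square per degree of freedom 3.29 against 28.77), so calls gained with a lone control leave the spread of controls out. Replicate numbers are shared by the groups, but the labels do not say that they mark a shared batch, and deviations of same-numbered libraries were barely correlated (r = 0.044 over 12700 genes). The fit with replicate number as a block called 3797 genes higher and 3903 lower, and 4 members higher and 2 lower, adding YTHDF2 (adjusted p = 0.0368). No other call of a member changed under the block. Depth limits IGF2BP1 above all, with 9 counts in each group.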
